A study of Mus musculus with 20 samples.

Results

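Neuropeptides are small signalling molecules that neurons cut from larger precursor proteins, pack into dense-core granules and release beside their fast transmitter. In the rodent cortex most of them mark classes of GABA interneurons. Somatostatin, neuropeptide Y and vasoactive intestinal peptide label separate or partly overlapping interneuron classes, cortistatin is a close relative of somatostatin, and cholecystokinin is made both by interneurons and by pyramidal cells. The opioid precursors proenkephalin, prodynorphin and prepronociceptin, the tachykinin precursor Tac1 (substance P and neurokinin A) and the pituitary adenylate cyclase-activating peptide Adcyap1 complete the set described here.

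The set holds 10 genes, Npy, Sst, Vip, Cck, Tac1, Penk, Pdyn, Cort, Pnoc and Adcyap1, chosen by gene name, and every probe that carries one of these names on the array. These were 11 of the 39429 non-control probes, with 2 probes for Pdyn and 1 for each other gene. The Sst probe was spotted 10 times on each array and its spots were averaged. RNA was taken from the frontal pole, cut as a slice 1 mm thick (orbital, prelimbic and frontal association cortex) of adult male Swiss-Webster mice that were all singly housed. The stress groups met a cage of unfamiliar males, once (acute), or repeatedly over 8 days, 13 days, or 13 days followed by 5 days of rest, and each had a control group of undisturbed brothers that was killed at the same time. Mice were killed a day after their last encounter except in the rest group. Stress and control mice lived in separate adjacent rooms, so the room and the encounters cannot be told apart in any ratio below. Of the mice in each group, those with the most RNA were taken for the arrays.

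Each pool held equal RNA from 3 mice, and a stress pool and the pool of its brothers were hybridised to the same 2-colour array. Each time point had 3 pairs of pools, which gives 12 pairs on 20 arrays. For pool 1 a single array per time point was used here, with stress in Cy5, and a swap of it was not analysed here. Pools 2 and 3 had a second array with the dyes swapped, which was turned and averaged with the first. Each slide held 1 array of every time point, all of a single pool number and dye orientation. The values of pool 1 thus come from 1 slide, and those of pools 2 and 3 each average an original and a swap slide. Of all probes, 70.4% to 74.3% were well above background on an array. All 11 neuropeptide probes were well above background on 20 of 20 arrays, and 0 of their spots were saturated. Of the 200 Sst spots over the arrays, 4 were marked as outliers and left out. The number of arrays limits the precision of every value here.

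A pair of probes shows what the array reads of these transcripts, and both are printed because they differ from the rest in kind. The Npy probe lies at chr6:49773743-49777505 of mm9, on the + strand. Its 60 bases span 3763 bases of the genome, so that it reads spliced RNA.
Npy probe: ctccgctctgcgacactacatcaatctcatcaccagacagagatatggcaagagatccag
The dimmer Pdyn probe lies at chr2:129513968-129514027 of mm9, on the - strand. The capitals mark, from base 40, the codons for the opening residues that enkephalins and dynorphins share.
Pdyn dimmer probe: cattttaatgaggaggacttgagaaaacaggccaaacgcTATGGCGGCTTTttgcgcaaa
The brighter Pdyn probe lies at chr2:129512323-129512382, nearer the 3′ end, and is the one meant by Pdyn where no probe is named.

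Several of these genes are textbook targets of cyclic AMP signalling, through a promoter element bound by CREB whose core is TGACG. Promoter windows of 300 bases, 250 of them before the start, were taken from RefSeq on GRCm38.p6 for 8 of the 10 genes. Penk and Pnoc had no entry. TGACG, or CGTCA on the other strand, stood in the windows of Sst, Vip, Cck, Tac1, Cort and Adcyap1, and not in those of Npy or Pdyn. Over all 32851 windows 20.8% held it. The full palindrome TGACGTCA, which contains the core on both strands, stood only in the Sst window among these 8 genes, against 1.79% of all windows. A match of letters is a description and not a binding site. The stretches below end before the transcription start, are read 5′ to 3′ on the gene's strand, and have the matches in capitals. They are shown for 3 genes with lower values in every pool at 8 days and for Vip, which had higher ones.
Sst, chr16:23890855-23890914, - strand: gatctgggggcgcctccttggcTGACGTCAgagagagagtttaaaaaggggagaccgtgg
Cort, chr4:149126764-149126823, - strand: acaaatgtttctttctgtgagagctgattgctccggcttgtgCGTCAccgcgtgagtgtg
Tac1, chr6:7554993-7555052, + strand: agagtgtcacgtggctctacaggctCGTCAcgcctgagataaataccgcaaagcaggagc
Vip, chr10:5639114-5639173, + strand: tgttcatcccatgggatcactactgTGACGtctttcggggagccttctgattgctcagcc

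Social stress moved none of the 10 genes past the thresholds of the test at any time point. A call needed a log2 ratio of stress over control above 0.5 in size together with an adjusted p under 0.05, by limma with Benjamini-Hochberg adjustment over all 39429 probes. In the order acute, 8 days, 13 days and 13 days with rest, 0 of 11 probes were called each time, where 0.00254%, 0%, 0.0228% and 0% of all probes were called. The 44 log2 ratios lay between -0.23 (Cort at 8 days) and 0.11 (Cck after rest). The 95% intervals of all 44 lay between -0.40 and 0.26, which is 0.759- to 1.20-fold, and 0 of them reached 0.5 in size. In 41 of the 44 the interval held 0. The other 3 had unadjusted p under 0.05 and belonged to Penk at 8 and 13 days and to Cort at 8 days. These are 2 of 11 probes at 8 days, where 2.39% of all probes had such a p, and 1 of 11 at 13 days, where 7.18% did. After acute stress (4.94% of all probes) and after rest (3.56%) it was 0 of 11. In bulk RNA, fewer cells of a type and less RNA per cell cannot be told apart.

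**Figure D1:**
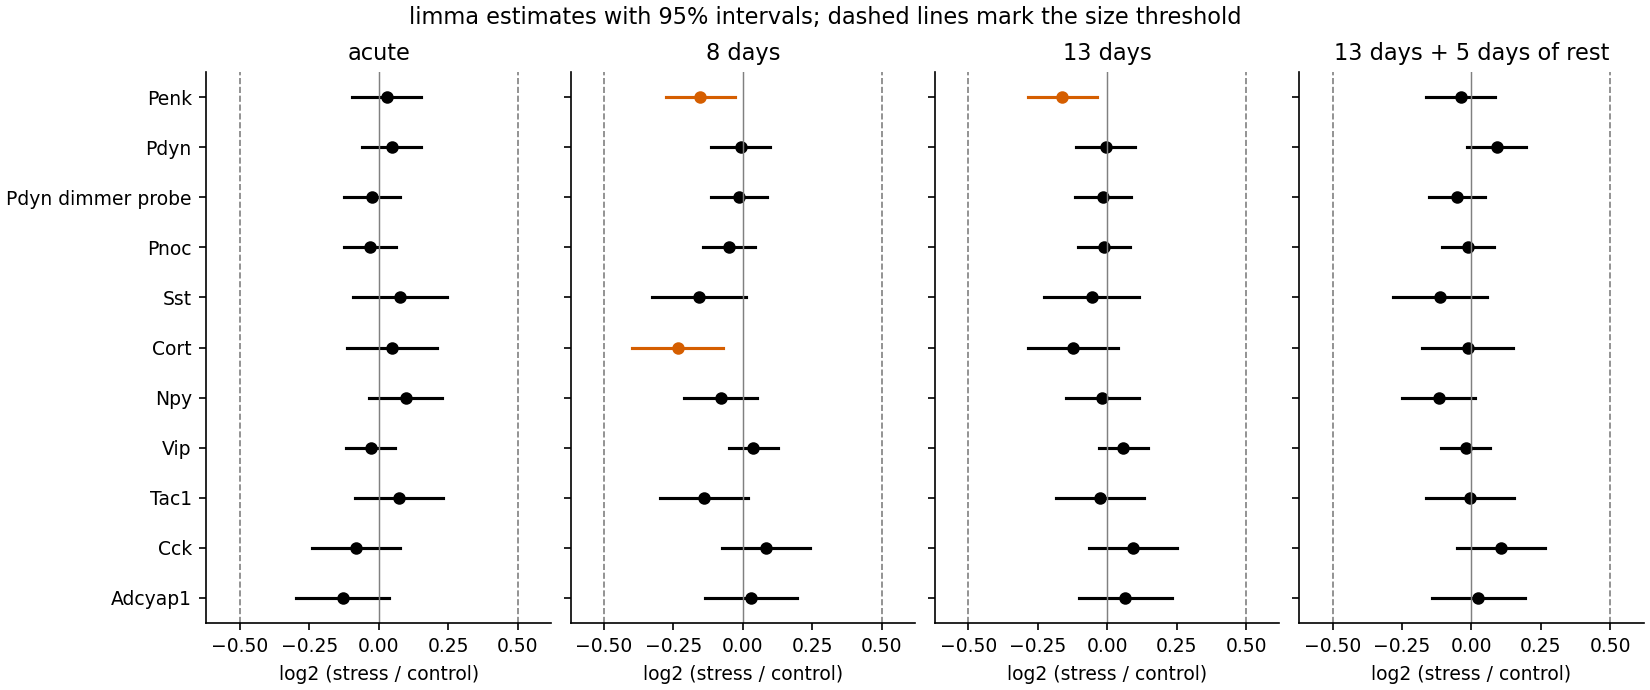
Log2 ratio of stress over control (x axis) for the 11 neuropeptide probes (y axis), with the limma estimate as a point and its 95% interval as a bar, 3 pairs of pools per time point. Dashed lines mark a log2 ratio of 0.5 in size, and the 3 estimates with unadjusted p under 0.05 are in orange. No interval reaches a dashed line.

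Among the opioid precursors, Penk had the lowest ratios during repeated stress. Penk encodes proenkephalin, the source of the enkephalins, and its probe lies at chr4:4060724-4060783 of mm9. After 8 days its normalized log2 intensity was 11.80, 11.83 and 11.70 in stress pools 1, 2 and 3, against 11.89, 11.97 and 11.93 in the control pools. Every stress pool lay below every control pool, as for 1.39% of all probes at this time. The log2 ratios were -0.086, -0.14 and -0.23, with a mean of -0.15 ± 0.058 (SE, n = 3 pairs), an unadjusted p of 0.0199 and an adjusted p of 1 (limma).

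After 13 days Penk intensity was 11.87, 11.82 and 11.75 in stress pools, against 11.94, 11.96 and 12.02 in control pools, and again the groups did not overlap (3.25% of all probes had all stress pools below all control pools). The log2 ratio was -0.16 ± 0.058 (SE, n = 3 pairs; limma, unadjusted p = 0.0153, adjusted p = 0.574), or 0.894-fold. It was 0.029 after acute stress, with pools at 0.15, 0.0090 and -0.072. After rest it was -0.039, with pool 1 at -0.19 and pools 2 and 3 at 0.053 and 0.018. The mean over the 4 time points was -0.081 ± 0.029 (SE, n = 12 pairs; limma, unadjusted p = 0.0148, adjusted p = 0.536). Penk was the only 1 of the 11 probes with an unadjusted p under 0.05 in that mean, against 7.48% of all probes, and 0 were called, against 0.0127% of all probes. At 8 and 13 days the Penk ratio was negative in 6 of 6 pools and on both dye orientations of each pool that had both. With the slide as a block the 13-day ratio was -0.18 and its adjusted p 0.177 (limma over 20 arrays, pools taken as random blocks), the lowest of any neuropeptide probe at a single time point over the settings run. For the mean over the 4 time points it was 0.139 in that fit. The correlation between arrays of the same pool was estimated at 0.0488 there. The 2 arrays of a pool thus counted almost as separate replicates, which they are not.

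The other opioid precursors had small ratios. Pdyn, the source of the dynorphins, had acute and 8-day log2 ratios of 0.047 and -0.0082 by its brighter probe, a 13-day ratio of -0.0061 and a ratio of 0.090 after rest (SE 0.049 each). By its dimmer probe they were -0.024, -0.015, -0.016 and -0.051 (SE 0.047 each). After acute stress the brighter probe was higher in 3 of 3 pools (0.0089, 0.088 and 0.045). The dimmer one was lower in 3 of 3 pools (-0.030, -0.041 and -0.0011). The 2 probes of this gene thus differed in sign there, but both means lay within 1 SE of 0. Pnoc, the source of nociceptin, stayed between -0.048 and -0.012 over the time points (SE 0.043), and its highest and lowest pools were at 0.076 and -0.13.

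Among the interneuron peptides, Cort had the lowest ratio of the set. Cort encodes cortistatin, which binds the somatostatin receptors, and its probe lies at chr4:148499300-148499359 of mm9. After 8 days its normalized log2 intensity was 10.20, 10.23 and 10.13 in the stress pools, against 10.59, 10.39 and 10.29 in the control pools. All stress pools lay below all control pools, as for 1.39% of all probes. The log2 ratios were -0.38, -0.16 and -0.16, with a mean of -0.23 ± 0.075 (SE, n = 3 pairs; limma, unadjusted p = 0.00829, adjusted p = 1), or 0.850-fold. After 13 days they were -0.031, -0.16 and -0.18, with a mean of -0.12 (adjusted p = 0.805, limma). The acute mean was 0.048 and the mean after rest was -0.014, and in both the pools fell on either side of 0, at 0.26, 0.0011 and -0.12 and at 0.13, -0.21 and 0.032.

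Sst, the somatostatin precursor, gave log2 ratios of -0.071, -0.086 and -0.32 at 8 days, with a mean of -0.16 ± 0.079 (SE, n = 3 pairs; limma, unadjusted p = 0.0666, adjusted p = 1). Stress pools had intensities of 12.90, 12.71 and 12.73 and control pools 12.97, 12.79 and 13.04, so that the groups overlapped. At the other times the Sst mean was 0.077 (acute), -0.056 (13 days) and -0.11 (rest). The acute value rested on pool 1, at 0.33, where pools 2 and 3 were at 0.0063 and -0.11. Without that pool the acute mean was -0.050.

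Npy, the neuropeptide Y precursor, had its lowest mean after rest, at -0.12 ± 0.061 (SE, n = 3 pairs; limma, unadjusted p = 0.0760, adjusted p = 0.999), with pools at -0.11, -0.17 and -0.077. Its stress pools, at 11.70 to 11.80, lay just below its control pools, at 11.81 to 11.97, as for 2.11% of all probes. At 8 days all 3 pools were lower too, at -0.067, -0.060 and -0.11. The acute mean was 0.097, with pools at 0.23, 0.075 and -0.012. At 13 days pool 1 was at 0.20 and pools 2 and 3 at -0.15 and -0.10, and the mean was -0.017.

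Vip, which marks interneurons that mostly contact other interneurons, had small ratios throughout. Its log2 ratios were -0.028, 0.037, 0.057 and -0.020 in the order acute, 8 days, 13 days and rest (SE 0.041 each), and it was higher in 3 of 3 pools at 8 days (0.012, 0.089 and 0.010) and at 13 days (0.021, 0.11 and 0.037). The 95% intervals of Vip lay between -0.12 and 0.15.

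**Figure D2:**
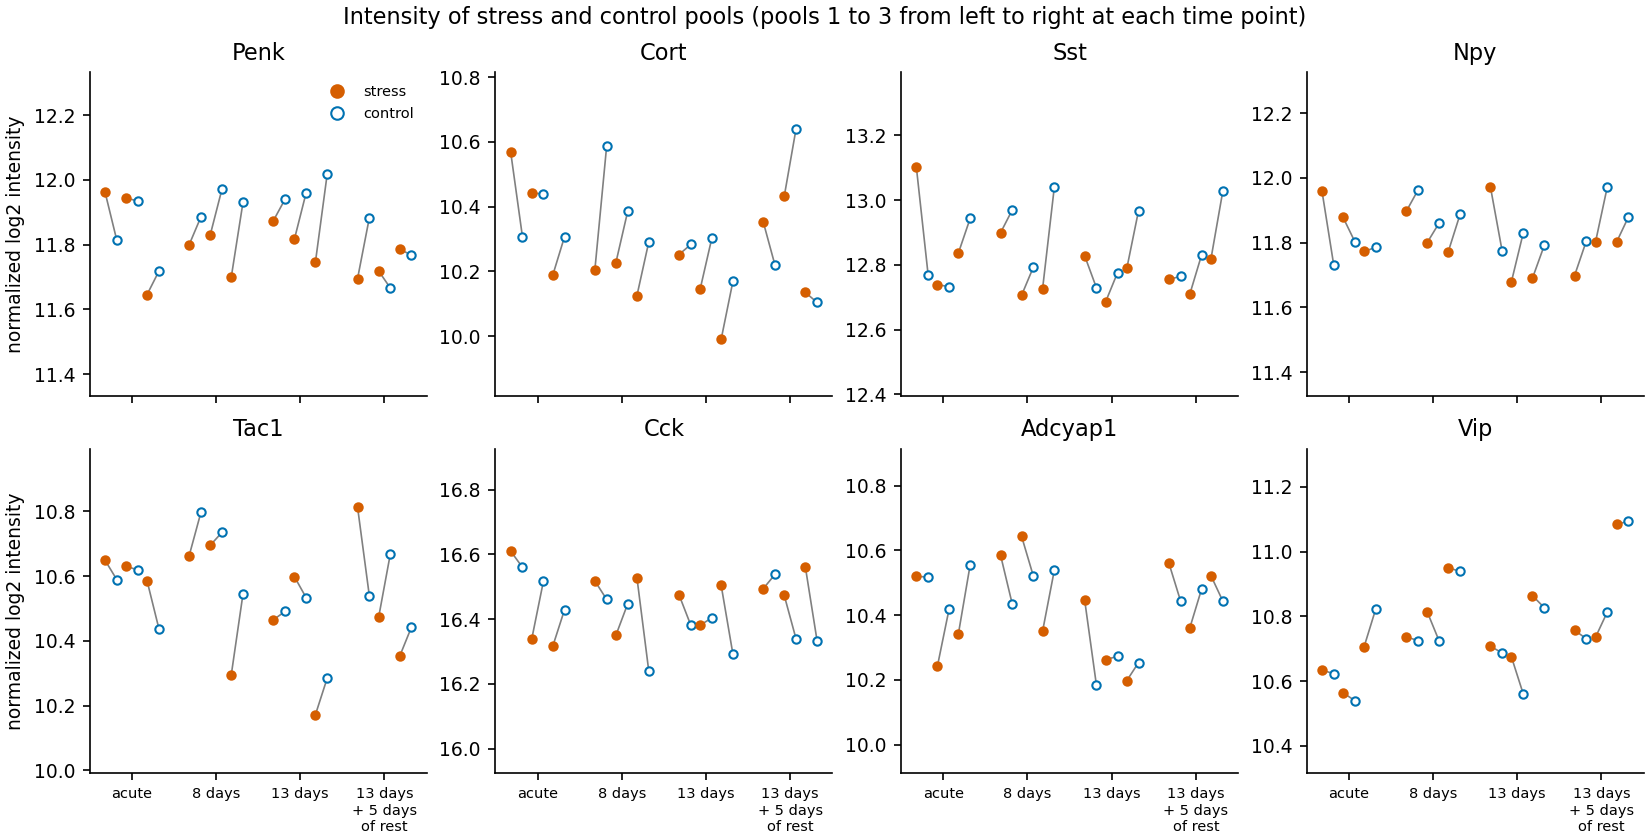
Normalized log2 intensity (y axis) of stress pools (filled) and the control pools of their brothers (open), joined by a line for each pair, at the 4 time points (x axis) for 8 neuropeptide genes. For Penk at 8 and 13 days, for Cort at 8 days and narrowly for Npy after rest, all 3 stress pools lie below all 3 control pools.

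The remaining genes gave ratios of either sign. Tac1 was at 0.060, 0.012 and 0.15 in the acute pools and at -0.13, -0.039 and -0.25 after 8 days, with means of 0.073 and -0.14 ± 0.073 (SE, n = 3 pairs each). It was -0.024 after 13 days and -0.0041 after rest, where its pools ranged from 0.27 (pool 1) to -0.20 (pool 2).

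Cck was the brightest probe of the set, at a mean log2 intensity of 16.4, and had the highest ratios, at 0.082 after 8 days, 0.094 after 13 days and 0.11 ± 0.073 after rest (SE, n = 3 pairs; limma, adjusted p = 0.999). Its pool 3 was at 0.29, 0.21 and 0.23 at these times, while pool 2 was at -0.097, -0.024 and 0.13. After acute stress the Cck mean was -0.081. Adcyap1 was lowest after acute stress, at -0.13 ± 0.077 (SE, n = 3 pairs; limma, unadjusted p = 0.115, adjusted p = 0.976), with pools at 0.0019, -0.18 and -0.21. At the other times its mean lay between 0.025 and 0.066, and pool 1 was above pool 3 each time.

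**Figure D3:**
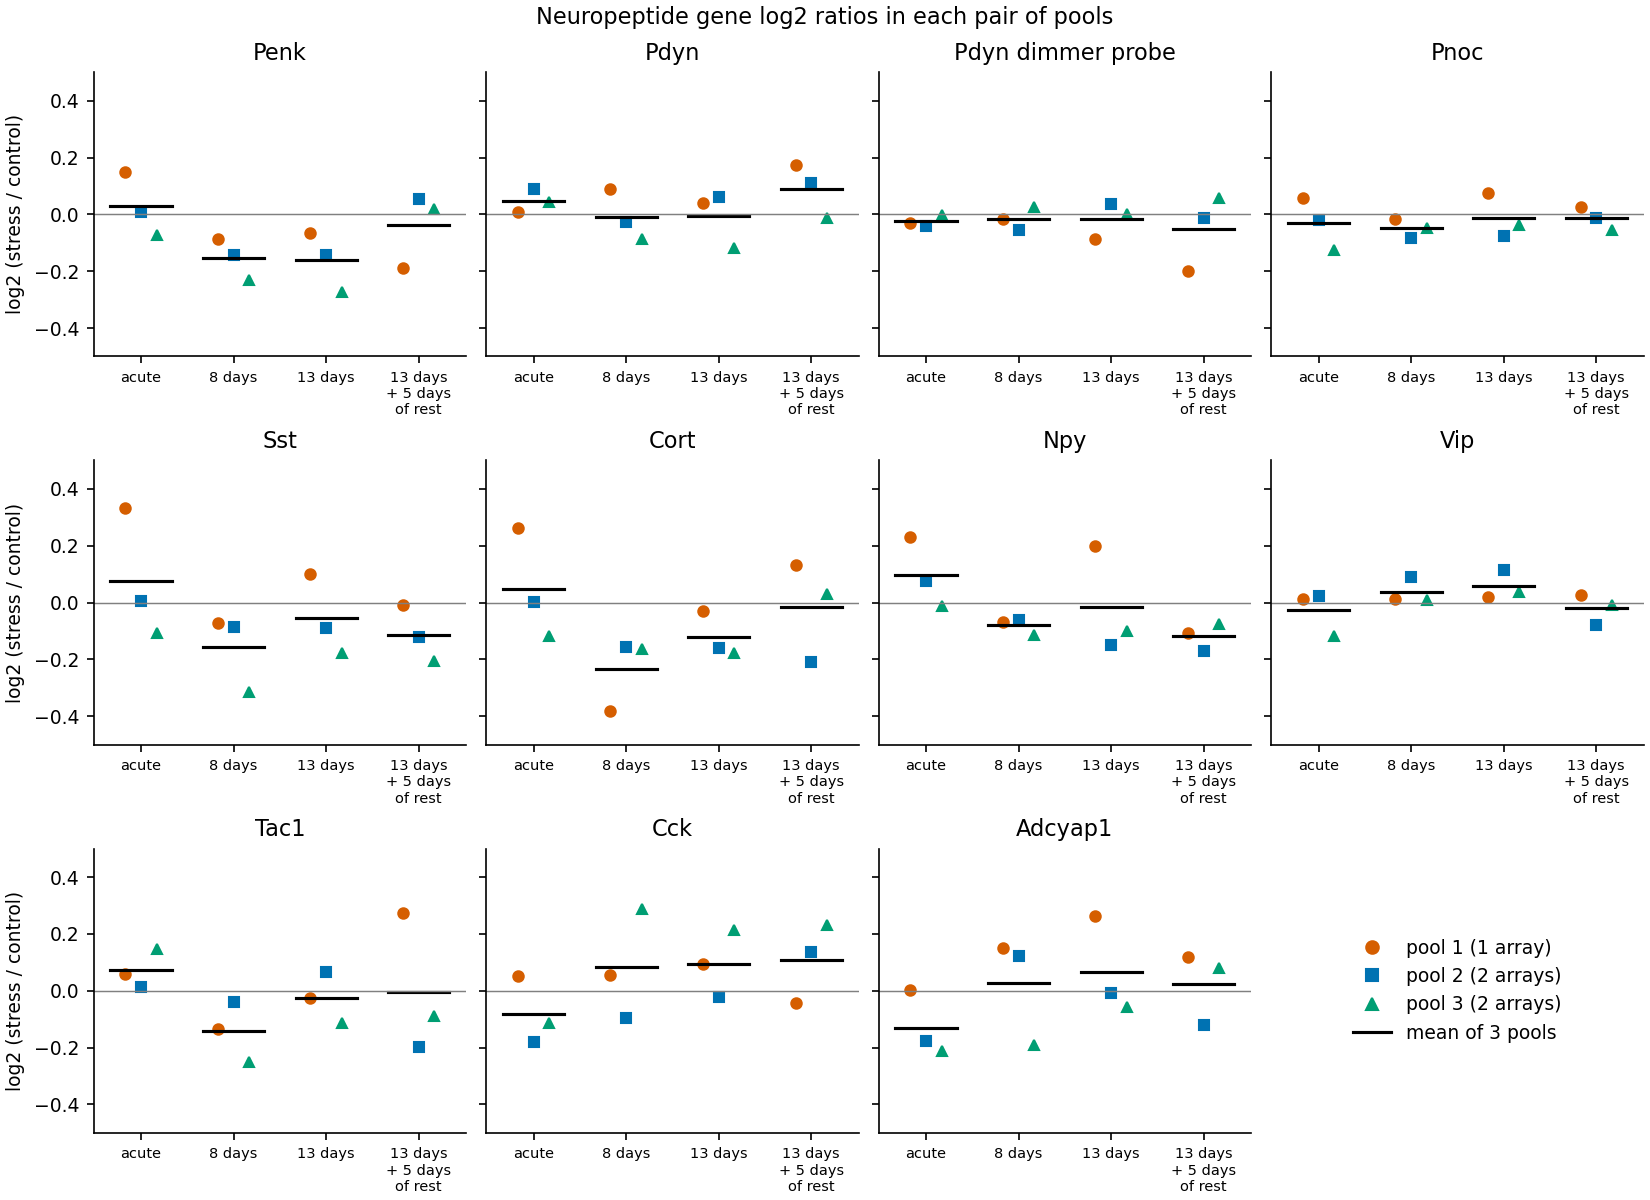
Log2 ratio of stress over control (y axis) in each pair of pools at the 4 time points (x axis), for the 11 neuropeptide probes, with the mean of 3 pools as a line. The points span -0.38 (Cort, 8 days, pool 1) to 0.33 (Sst, acute, pool 1).

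The mean log2 ratio was positive for 6 and negative for 5 of the 11 probes after acute stress, and positive for 3 and negative for 8 at each of the other times. At 8 days the single pools also shared their sign in more probes than at the other times. Of the 11 probes 6 (Penk, Cort, Sst, Npy, Tac1 and Pnoc) were lower in 3 of 3 stress pools, against 11.1% of all probes and 11.7% of the 26074 probes well above background on every array. Vip alone was higher in 3 of 3 pools, against 7.50% of all probes. The median log2 ratio of the 11 probes was -0.048 at 8 days and that of all probes -0.00091. The count of 6 depended on the normalization of the arrays. It was 0 with each array centred on its median in place of loess, and 3 with the original arrays alone, which have stress in Cy5 throughout. Median centring was far less precise, with an 8-day SE of 0.51 for Sst and 0.39 for Tac1, against 0.079 and 0.073 in the main fit.

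At the other times fewer probes had pools on 1 side. After acute stress 0 probes had all stress pools below all control pools in intensity (2.87% of all probes), Tac1 and Pdyn were higher in all 3 pools (13.9% of all probes) and the dimmer Pdyn probe was lower (14.4%). After 13 days Vip was higher (12.2%) and Penk and Cort were lower (14.4%). After rest 0 probes were higher (8.37%) and Npy and Sst were lower (12.6%). The medians of the 11 log2 ratios were 0.029, -0.016 and -0.014 at these 3 times, against 0.0011, -0.00071 and -0.0015 over all probes.

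Whether the effect of stress differed between time points was tested by contrasts of the same fit, and 0 of 11 probes were called in any of them. The share of all probes called was 0.00254% for 13 days minus acute and 0% for the others. An unadjusted p under 0.05 was found for 2 of 11 probes in 8 days minus acute (2.28% of all probes) and for 1 of 11 in 13 days minus acute (4.69%). It was found for 0 of 11 in 13 days minus 8 days (1.54%) and in rest minus 13 days (4.94%). Cort had the lowest difference, at -0.28 ± 0.11 for 8 days minus acute (SE, limma, unadjusted p = 0.0200, adjusted p = 1.00), with a 95% interval that reached -0.51. For Penk the difference was -0.18 (unadjusted p = 0.0440) for 8 days minus acute and -0.19 (unadjusted p = 0.0369) for 13 days minus acute, with adjusted p of 1.00 in both (limma). The same contrast to acute at 8 days was -0.24 for Sst, -0.21 for Tac1 and -0.18 for Npy, each with a 95% interval that held 0. From 13 days to rest the Penk difference was 0.12 (unadjusted p = 0.158, limma).

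Several of these ratios differed between the dye orientations of the same pools. Swapped arrays were on slides of their own, so dye and slide cannot be told apart here. In the 8 pools with both orientations, a log2 ratio with stress in Cy5 exceeded the mean of both orientations by 0.24 ± 0.22 for Cck (SD, n = 8 pools), 0.15 ± 0.072 for Tac1, 0.11 ± 0.080 for Pnoc, 0.11 ± 0.082 for Cort and 0.095 ± 0.068 for Pdyn. For Tac1, Pnoc and Pdyn the sign was the same in 8 of 8 pools. These 8 pools share slides by pool number and are not independent replicates of a dye effect. The means were smaller for Penk (0.028 ± 0.077), Sst (-0.046 ± 0.10) and Npy (-0.014 ± 0.14), where the sign differed between pools. The orientations of Npy were not closer to each other. Their median absolute difference was 0.218 for Npy, against 0.167 for Pdyn and 0.152 for Pnoc. The orientations lay farthest apart for Cck in pool 3 at 8 days, with 0.84 when stress was in Cy5 and -0.26 when it was in Cy3. In pool 2 at that time Cck was at -0.054 and -0.14. At every time point the Cck orientations were closer in pool 2 than in pool 3, so the Cck mean of 0.24 came mostly from pool 3. Pool 1 has stress in Cy5 only, and its mean over the 4 time points was 0.088 for Sst, 0.063 for Npy and 0.13 for Adcyap1, while that of pools 2 and 3 was -0.14, -0.076 and -0.071. The part of the dye in these differences was not tested, and pool number and slide cannot be told apart.

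**Figure D4:**
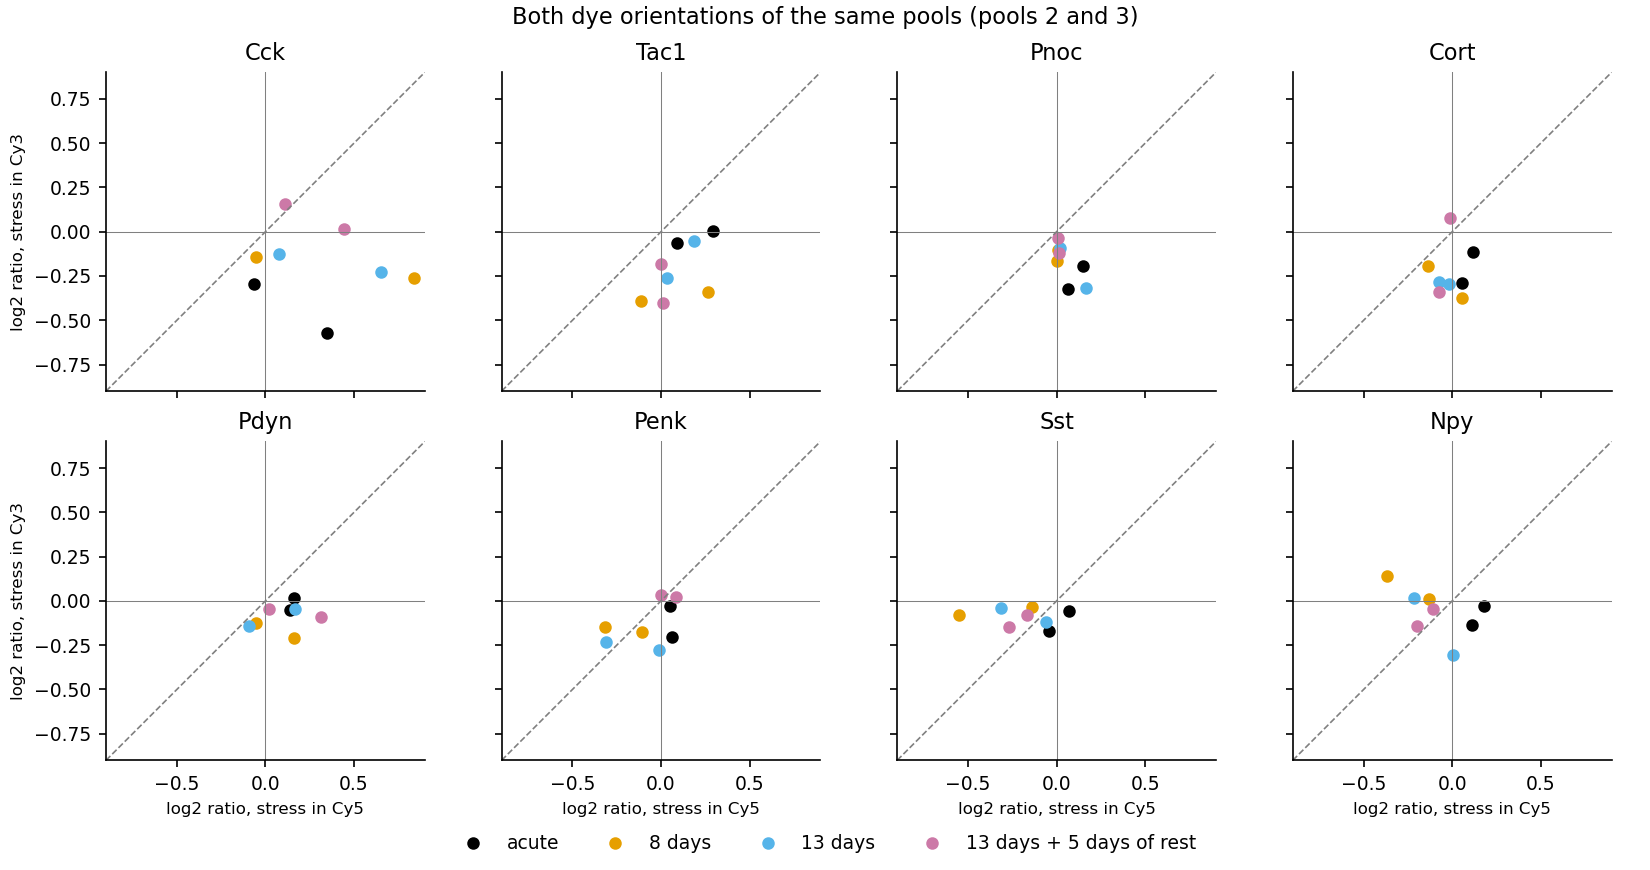
Log2 ratio of stress over control in the same pair of pools with stress in Cy5 (x axis) and with stress in Cy3 (y axis), for pools 2 and 3 at the 4 time points (colours) and 8 neuropeptide genes. Points below the dashed line of equality have a higher ratio with stress in Cy5, as all 8 do for Tac1 and Pnoc.

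Pairs of pools differed more in 7 of these genes than in most others. The SD of the 12 log2 ratios was 0.171 for Cort and 0.164 for Sst, and 92.9% and 91.5% of the probes well above background on every array had a smaller SD. The same share was 88.9% for Adcyap1, 87.2% for Tac1, 87.1% for Cck, 79.9% for Npy and 75.8% for Penk. Pdyn (38.2%), Vip (14.8%) and Pnoc (11.3%) varied less. The stress and control pools held different brothers, and how mice differ within a pool cannot be read from pooled RNA.

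Over the 12 pairs of pools the ratios of Npy and Sst went together, with Pearson's r = 0.811 (permutation p = 0.00142, adjusted 0.0639 over 45 pairs of genes) and Spearman's rho = 0.678 (permutation p = 0.0189, adjusted 0.283). Within each pool number the sign was kept, with r of 0.851, 0.950 and 0.837 over the 4 time points of pools 1, 2 and 3. Each of these r rests on 4 values, and those of pools 2 and 3 average an original and a swap slide. With time point and pool number removed r was 0.598, and when the 2 pools most distant from the Npy median were left out it was 0.403. Cck and Tac1 went in opposite directions, with r = -0.683 (permutation p = 0.0139, adjusted 0.276) and rho = -0.734 (permutation p = 0.00856, adjusted 0.283). For that pair r was -0.658 without the 2 farthest pools, and -0.873 with time point and pool number removed. Of the 45 pairs 33 had a positive r and 12 a negative one, the median was 0.171, and 0 passed an adjusted p of 0.05 by either measure.

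**Figure D5:**
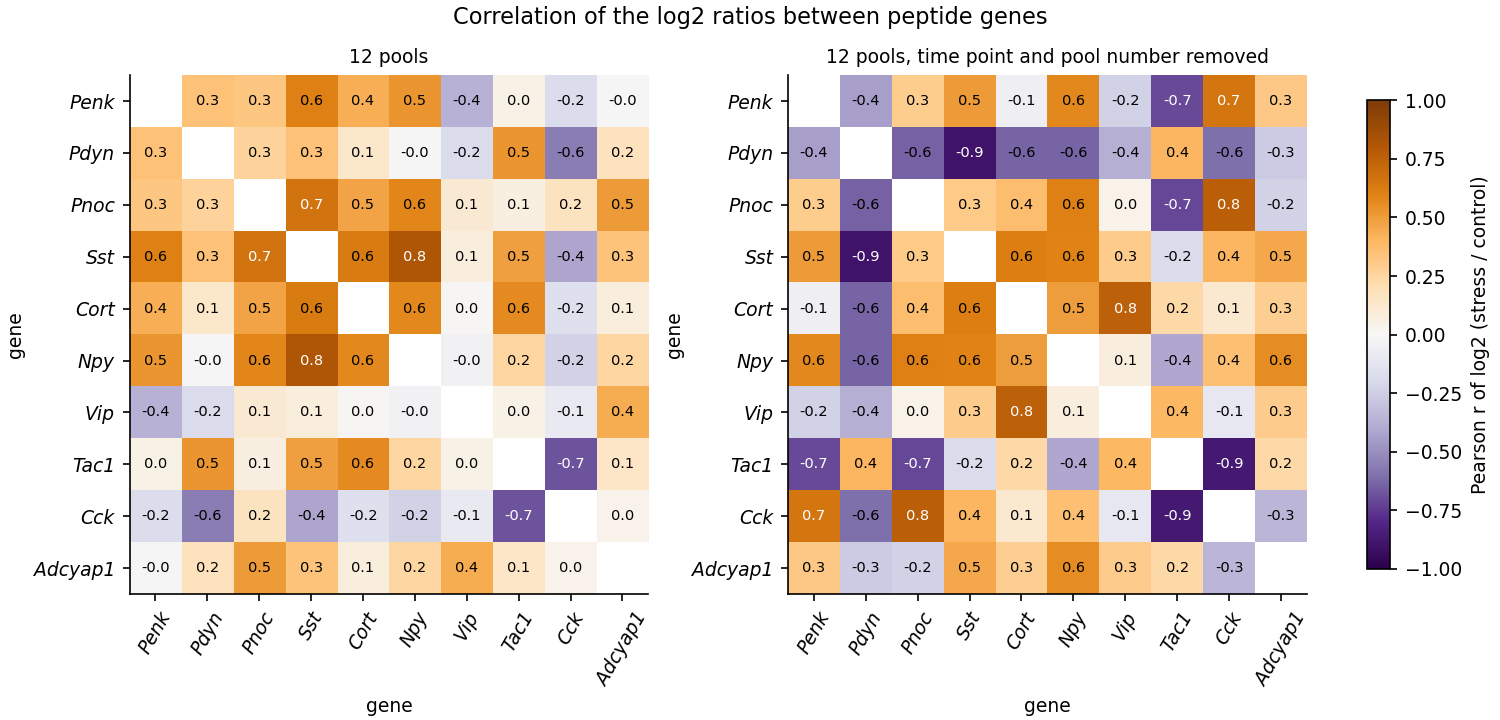
Pearson's r between the log2 ratios of each pair of neuropeptide genes (both axes) over 12 pairs of pools, as measured (left) and with the means of time point and pool number removed (right). The highest value on the left is 0.811 (Npy with Sst) and the lowest -0.683 (Cck with Tac1).

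The genes whose ratios were most like those of each peptide gene over the 12 pools, among 14360 named genes well above background on every array, were mostly of other classes. They were Ccdc134 for Npy (r = 0.955), Gtf3c5 for Sst (0.938), Ralgapa1 for Vip (0.915), B3galt2 for Tac1 (0.955), Pbxip1 for Penk (0.944) and Smarcd3 for Pnoc (0.955). For Cck the nearest was Aldoa, a glycolytic enzyme (0.860), for Pdyn Crybg3 (0.930), for Cort Calr3 (0.876) and for Adcyap1 Tmeff2 (0.930). These r are the highest of many and share the arrays, and they are given as a description.

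The receptors of these peptides were measured for 21 genes, with 17 well above background on every array, and 0 were called at any time point. Their median log2 ratio lay between -0.011 (rest) and 0.020 (acute). Oprk1, the kappa opioid receptor that binds dynorphins, was at 0.22 ± 0.055 after acute stress (SE, n = 3 pairs; limma, adjusted p = 0.537), and Oprl1, the nociceptin receptor, at -0.12 ± 0.046 after 8 days (adjusted p = 1).

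Of 14 genes for precursor cleavage and granule proteins 0 were called, and their median was -0.044, -0.061, -0.034 and -0.017 in the order of the time points. Scg2, the granule protein secretogranin II, had the lowest p of this list, with log2 ratios of -0.14, -0.28, -0.23 and 0.046 (SE 0.056 each) and an adjusted p of 1 at 8 days and 0.344 at 13 days (limma). Chga, the granule protein chromogranin A, was at -0.24 ± 0.077 after 8 days (SE, limma, adjusted p = 1).

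Of 22 further genes, most of them for other peptides, 0 were called. The list also held Crhbp and Nxph1, which are not neuropeptide precursors. Cartpt, the source of the CART peptide, was at 0.27 ± 0.059 after acute stress and again at 0.27 after 13 days (limma, adjusted p = 0.399 and 0.267). Adm, the vasodilator adrenomedullin, was at 0.23 ± 0.037 after 13 days (SE, n = 3 pairs; limma, adjusted p = 0.106).

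Markers of the cells that the slice could hold were measured beside these genes. The mean log2 ratio of 19 GABA interneuron markers lay between -0.060 and 0.076 over the 12 pools, and 0 of them were called. At 8 days it was 0.059, -0.0038 and -0.048 in pools 1 to 3. Cort was at -0.38, -0.16 and -0.16 in those pools, and the part of interneuron content in the Cort ratio was not tested. Pvalb, the calcium-binding protein of fast-spiking interneurons, was the named marker with the highest acute ratio, 0.28 ± 0.077 (SE, n = 3 pairs; limma, adjusted p = 0.666).

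Penk, Pdyn and Tac1 are also highly expressed in the striatum. The mean of 13 striatal markers, Penk, Pdyn and Tac1 left out, was 0.071, -0.018 and -0.0033 at 8 days and 0.040, -0.020 and -0.017 at 13 days, and 11 of the 13 were well above background on every array. Penk was lower in all 6 of those pools, and the part of striatal tissue in its ratio was not tested. Ppp1r1b, a phosphoprotein of striatal projection neurons, was at -0.17 ± 0.072 after rest (SE, n = 3 pairs; limma, adjusted p = 0.999).

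The slice lies next to the olfactory bulb. The mean of 14 olfactory bulb markers was 0.078, 0.20 and -0.20 in the acute pools and between -0.13 and 0.025 in the others, with 10 of 14 markers above background on every array, and its part in the acute ratios was not tested. Of 17 cortical excitatory neuron markers 0 were called, since Ctgf, a deep-layer marker at 0.47 ± 0.068 after 13 days (limma, adjusted p = 0.0403), stayed under the size required. Their mean lay between -0.058 and 0.081 over the 12 pools.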

How the data were processed

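The deposited scanner tables hold mean spot intensities and local backgrounds per channel, which the authors read with Agilent Feature Extraction. They also hold, as deposited, a log10 ratio of red over green. The value tables hold the authors' log2 ratios of stress over control. The direction of each ratio came from the dyes in the labels. Per the study's methods the authors' ratios were made with normexp, loess and Aquantile, at an offset that is not given in the sources used here. Their r with ratios made here at the alternative normexp offset of 0 was 0.913 to 1.00 per array.

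Mean intensities were corrected by normexp (offset 50), normalized by loess within arrays and Aquantile between arrays in limma 3.58.1 (R 4.3.3), with control and outlier spots at weight 0. Outlier spots were then set to missing and 43020 spots averaged to 39429 probes. Swaps were turned and averaged with their originals. limma fitted 1 coefficient per time point over 12 pools (prior degrees of freedom 4.86) with Benjamini-Hochberg adjustment over all probes. An SE is that of this fit, with 12.9 degrees of freedom. The fit was tested on simulated data. Correlations were tested with 100000 permutations of all 12 pools. The permutations did not keep pools of the same number together, although these share slides. Alternatives are given in the closing section.

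For lists, 1 probe per gene was kept, the brightest. Named genes were every member, and per list the called genes or the 2 with the lowest p; for likeness, the nearest gene by Pearson's r of 2 computed. A gene that this rule names is not reported here. The genes and lists were chosen with earlier results of these data known. Positions are those of the array tables (mm9). Promoter windows are those of RefSeq (GRCm38.p6).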

Additional observations from a re-analysis of the deposited data

Results flagged for a closer look

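Tac1 was higher in 3 of 3 stress pools after acute stress (0.060, 0.012 and 0.15) and lower in 3 of 3 after 8 days (-0.13, -0.039 and -0.25), so that every pool of these time points moved in opposite directions. The difference was -0.21 on the log2 scale, with an unadjusted p of 0.0593 and an adjusted p of 1.00 by the limma contrast. With the original arrays only, the 8-day Tac1 ratio was 0.0064. The single arrays did not all keep the sign. Acute pool 2 was at 0.088 with stress in Cy5 and -0.065 with stress in Cy3, and 8-day pool 2 at 0.26 and -0.34. Tac1 ratios with stress in Cy5 exceeded the mean of both orientations by 0.15 on average, and pool 1 has that orientation only.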

How the results depend on the processing

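No neuropeptide probe was called at any time point under any of the 27 alternatives, including an adjusted p alone and the value table. The lowest adjusted p at a single time point was 0.177 (Penk at 13 days), and that of the Penk mean over the 4 time points was 0.139, both with the slide as a block. The count of 6 probes lower in 3 of 3 pools at 8 days was 0 with median centring and 3 with original arrays only, and the cause was not tested. Penk at 8 days (-0.29 to -0.11), Penk at 13 days (-0.21 to -0.11) and Cort at 8 days (-0.29 to -0.15) kept a negative sign throughout. Of 1148 log2 ratios set against their main value, 92 changed sign, 48 of them by less than 1 SE. Many of the 1148 could not change. Settings that alter only the SE or the p, and leaving out Aquantile, keep every ratio. Leaving out a pool alters only the ratios of its own time point. The share that changed therefore does not measure stability.

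Signs that changed by more than 1 SE of the main value were these. Without background correction the dimmer Pdyn probe was at 0.042 (acute), Pnoc at 0.00096 (8 days) and Cck at -0.034 (8 days). With Agilent's ratio the dimmer Pdyn probe was at 0.12, 0.085 and 0.059 (acute, 8 and 13 days), Pnoc at 9.23e-05 and Cck at -0.076 (8 days). With median centring Tac1 was at 0.053 (13 days), Pnoc at 0.067, 0.052 and 0.058 (acute, 13 days and rest), Cck at 0.17 and -0.093 (acute and 8 days), Adcyap1 at 0.016 (acute) and Vip at 0.12, -0.076 and 0.030 (acute, 8 days and rest). The SE in that setting was 0.39 for Tac1, 0.24 for Pnoc, 0.53 for Cck, 0.41 for Adcyap1 and 0.39 for Vip. Each of these median-centred values lay within its own SE of 0. With original arrays only Tac1 was at 0.0064, 0.064 and 0.095 (8 days, 13 days and rest), Pnoc at 0.092 and 0.087 (acute and 13 days), Pdyn at 0.066 (8 days) and Cck at 0.11 (acute). With pools 2 and 3 only, which was chosen after seeing the data, Sst was at -0.050 (acute), the dimmer Pdyn probe at 0.022 (rest), Penk at -0.031 and 0.036 (acute and rest), Cort at -0.059 (acute) and Adcyap1 at -0.033 (13 days).

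Leaving out 1 pool at a time turned the sign by more than 1 SE for Sst (-0.050 to 0.17), Pnoc (-0.074 to 0.019), Penk (-0.031 to 0.079), Cort (-0.059 to 0.13) and Vip (-0.054 to 0.018) after acute stress. It did so for Cck at 8 days (-0.020 to 0.17), and at 13 days for Pdyn (-0.039 to 0.049), Npy (-0.13 to 0.049) and Adcyap1 (-0.033 to 0.13). After rest it did so for the dimmer Pdyn probe (-0.11 to 0.022), Tac1 (-0.14 to 0.092), Penk (-0.085 to 0.036) and Cort (-0.088 to 0.082).

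Pool numbers are shared between time points by slide, and 12 of 18 same-numbered pairs had an r of deviations over 0.1 (range -0.18 to 0.54). Of the pairs with different numbers 8 of 36 did (range -0.513 to 0.445). With the replicate number as a block 0 neuropeptide probes were called (lowest adjusted p at a single time point 0.270, Penk at 13 days, limma), and over all probes 2, 1, 10 and 0 were called in the order of the time points, against 1, 0, 9 and 0 without it. Calls over all probes ranged from 0 to 67 (acute), 0 to 26 (8 days), 0 to 18 (13 days) and 0 to 46 (rest) over the alternatives.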

Other observations

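A further probe, of the clone A830012C17Rik, is described in the array table as preproenkephalin but carries another gene name, and was therefore not counted with Penk. It was well above background on 1 of 20 arrays. Its log2 ratio was -1.26 in pool 1 at 13 days and lay between -0.088 and 0.077 in the other 11 pools, and its r with Penk over the 12 pools was -0.014.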
